A study of Drosophila melanogaster with 24 samples.

Results

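RNA levels at 4.5 to 6 h after egg-laying were compared with those at 3 to 4.5 h in embryos of *brat* mutant *Drosophila* females. The 3 *brat* mutant collections of 4.5 to 6 h were set against the 3 of 3 to 4.5 h, 6 of the 24 samples of the series. The mothers were of the genotype bratfs1/Df(2L)TE37C-7, in which the second allele is a deficiency. Their mates were brothers, largely with one of these chromosomes over the CyO balancer, so that a collection mixed several zygotic genotypes. The bratfs1 allele is a missense allele in the NHL domain, the RNA-binding part of the protein, and the *brat* mRNA itself is still made. The combination is female sterile, with a loss of abdominal segments in the offspring. Embryos of w1118 flies, the wild-type control, were collected at the same times, and their 3 samples of 4.5 to 6 h and 3 of 3 to 4.5 h are used for comparison. Every sample was total RNA of whole embryos staged only by the hours since egg-laying, so that fewer cells of a type and less RNA per cell cannot be told apart. The labels call the samples biological replicates and do not say how many embryos each pooled.

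Brain tumor (BRAT) is an RNA-binding protein that represses the translation of maternal mRNAs and promotes their decay as the embryo's own genome takes over. On *hb* mRNA it acts together with Pumilio (PUM) and Nanos. The interval covers gastrulation, germ band extension and the first steps of organ formation. In it, the transient factors of the blastoderm, such as pair-rule genes and the mesoderm activator *twi*, normally give way to genes of neuroblasts, tracheal and salivary placodes, muscle precursors and mature epithelia.

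RNA was measured as log2 values after RMA, a normalization that gives every array the same distribution of values. The values are relative, so that a general loss or gain of RNA cannot be seen. Values of the probes' transcripts were averaged per gene, which gave 13626 genes. Levels ranged from 7.05 to 15.77 over transcripts and samples, and the mean over all genes was 9.42 in both *brat* mutant groups. Between replicates, Pearson's correlation over the 5060 genes above the overall mean was 0.95 to 0.958 in *brat* mutant embryos at 4.5 to 6 h and 0.918 to 0.945 at 3 to 4.5 h. Each genotype had the same dyes at both times, so that dye cancels in a change over time. It does not cancel in a level compared between genotypes. Most samples of each *brat* mutant group carried the dye Cy3 and most of each wild-type group Cy5, and the part of dye in such differences was not tested. The number of arrays limits the precision, and the depth of an array has no count.

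Markers of other tissues and stages were read first. The 12 eggshell genes of follicle cells lay below the mean of all genes in every sample, with list means of 8.04 to 8.17 at 4.5 to 6 h and 7.96 to 8.39 at 3 to 4.5 h in *brat* mutant embryos. The 13 late differentiation genes, most of which are normally low until muscles and neurons mature well after this interval, had a higher list mean in *brat* mutant embryos, against wild type, at both times, although *Hml* was lower. Of the 13, 7 were above the sample's mean of all genes in each *brat* mutant sample of 4.5 to 6 h and 6 or 7 at 3 to 4.5 h, against 1 to 3 and 1 to 4 in wild type. The summed log2 level of the list was 126.0 to 129.6 at 4.5 to 6 h and 120.5 to 130.7 at 3 to 4.5 h in *brat* mutant embryos, against 112.4 to 116.6 and 109.7 to 118.5 in wild type.

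The 7 were muscle genes. *Mhc*, the muscle myosin heavy chain, was 10.72, 10.89 and 10.81 at 4.5 to 6 h in *brat* mutant embryos, against 10.85, 9.57 and 10.34 at 3 to 4.5 h. Wild-type embryos had 8.87, 8.86 and 8.95, against 9.37, 8.87 and 8.14. *Mlc2* was 11.62, 11.73 and 11.82 in *brat* mutant embryos, against 12.09, 10.85 and 10.86, and 9.22, 9.35 and 9.07 in wild type, against 9.92, 8.74 and 8.01. The muscle gene *Mlp60A* was below the mean of all genes in both *brat* mutant groups, with means of 8.71 and 8.51. So were the neuronal and glial markers *brp*, *nSyb*, *Syt1* and *repo* and the blood cell marker *Hml*. In *brat* mutant embryos 0 of the 13 differed between the times without overlap, and the list's mean was lowest in replicate 2 (9.27) and highest in replicate 1 (10.05) at 3 to 4.5 h. A list of 16 neuronal genes, *brp*, *nSyb* and *Syt1* among them, also had a higher mean in *brat* mutant embryos. It was 10.71 at 4.5 to 6 h and 10.56 at 3 to 4.5 h, against 10.39 and 10.12 in wild type. So had a list of 15 cuticle and apical matrix genes, with 10.05 and 10.03, against 9.02 and 8.86 in wild type. Embryos were staged only by the hours since egg-laying, and whether the *brat* mutant collections held older embryos than their window was not tested, nor was the part of these markers in the results below.

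Few genes changed far enough in *brat* mutant embryos to pass a test over all genes. With limma on the 6 samples and an adjustment by Benjamini and Hochberg to a false discovery rate (FDR) of 5%, 0 genes (0.0% of 13626) rose and 3 (0.022%) fell: *net*, *twi* and *dan*. At an unadjusted p of 0.05, 526 genes were higher and 464 lower, 990 in all. In wild-type embryos the same test called 105 genes higher (0.771%) and 70 lower (0.514%). Changes were also smaller in *brat* mutant embryos. Their standard deviation over all genes was 0.33 on the log2 scale, against 0.41 in wild type, and 128 genes differed at least 2-fold between the means, against 357 in wild type. The spread between replicates was alike: the median SD of a gene was 0.25 at 4.5 to 6 h and 0.28 at 3 to 4.5 h in *brat* mutant embryos, and 0.25 and 0.27 at the same times in wild type. The median change over all genes was -0.01 in both genotypes.

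A fit of all 24 samples, which estimates the spread of a gene from 8 groups, called 17 genes higher (0.125%) and 17 lower (0.125%) at 4.5 to 6 h in *brat* mutant embryos. The 3 genes of the smaller fit were among them. In wild type that fit called 261 higher (1.92%) and 174 lower (1.28%). The difference between the *brat* mutant and wild-type changes was tested in the same fit. It was past the FDR for 1 gene, *Clk*, whose change was lower in *brat* mutant embryos (0.00734%), and for 0 genes in the other direction (0.0%), with 874 genes at an unadjusted p of 0.05. The smaller number of calls in *brat* mutant embryos is therefore not a test gene by gene that the genotypes differed. As a count without a model, the 3 samples of 4.5 to 6 h lay wholly above the 3 of 3 to 4.5 h for 904 genes (6.63%) and wholly below them for 896 (6.58%) in *brat* mutant embryos. In wild type these counts were 1290 (9.47%) and 1250 (9.17%).

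**Figure D1:**
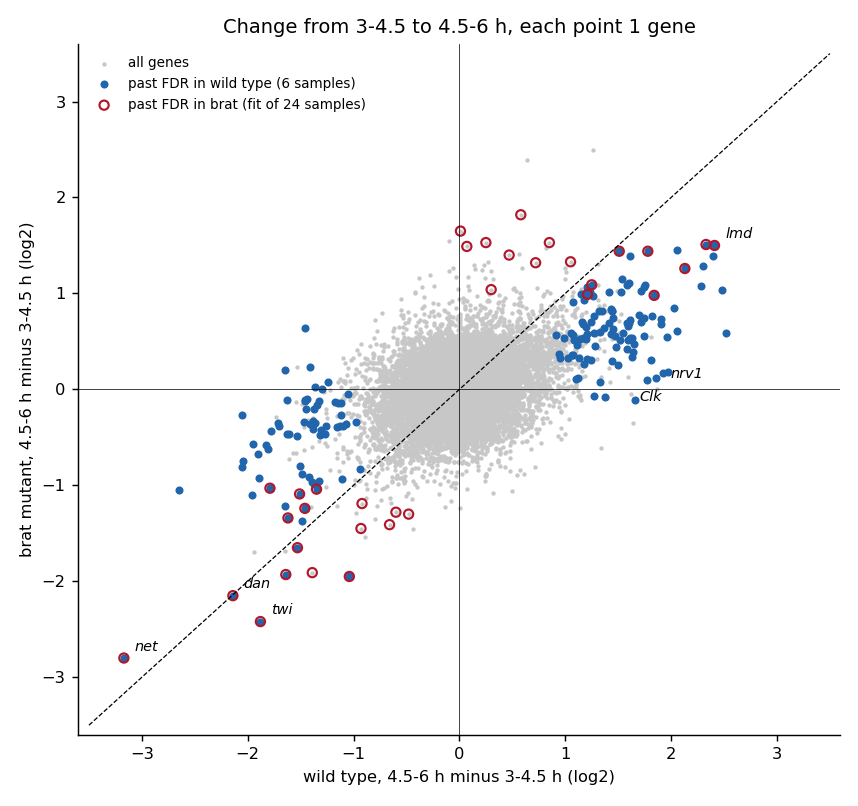
Log2 change from 3 to 4.5 h to 4.5 to 6 h in *brat* mutant embryos (vertical axis) against that in wild-type embryos (horizontal axis), for each of 13626 genes, with the line of equal change dashed. Filled points are the 105 and 70 genes past the FDR in wild type and open circles the 34 past it in *brat* mutant embryos in the fit of all 24 samples. *net*, *dan* and *twi* lie far down in both genotypes, whereas *Clk* and *nrv1* lie near 0 on the vertical axis only.

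The 3 genes that fell encode nuclear proteins. *twi* (CG2956) encodes the basic helix-loop-helix (bHLH) activator that specifies mesoderm. In *brat* mutant embryos its level was 10.34, 10.66 and 9.97 at 4.5 to 6 h, against 12.89, 13.01 and 12.33 at 3 to 4.5 h. No sample of the later time reached the lowest of the earlier time. It fell by 2.42 on the log2 scale (SE 0.26), which is 5.35-fold lower (limma, adjusted p = 0.0228). Wild-type embryos had 11.34, 11.35 and 11.11 at 4.5 to 6 h, against 13.16, 13.15 and 13.15 at 3 to 4.5 h, where *twi* fell by 1.88 (adjusted p = 0.0042). The difference of the changes was -0.54 (SE 0.32, adjusted p = 0.834).

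*net* (CG11450), a bHLH protein known for repressing *rhomboid* between the wing veins, had the largest fall. Its level in *brat* mutant embryos was 8.59, 8.62 and 9.15 at 4.5 to 6 h, against 11.98, 11.84 and 10.92 at 3 to 4.5 h. It fell by 2.80 (SE 0.30), 6.95-fold lower (adjusted p = 0.0228), and ended below the mean of all genes. In wild type it fell by 3.17 (adjusted p = 0.00388).

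*dan* (CG11849), a pipsqueak-type nuclear protein known from antenna and eye development, was 9.68, 10.15 and 9.46 at 4.5 to 6 h, against 12.11, 12.16 and 11.47 at 3 to 4.5 h. It fell by 2.15 (SE 0.27), 4.45-fold lower (adjusted p = 0.0493), next to 2.14 in wild type. The related gene *danr*, named after its values were seen, was 8.15, 8.85 and 9.53 at 4.5 to 6 h, against 9.57, 9.63 and 9.03 at 3 to 4.5 h in *brat* mutant embryos, where the samples overlapped, whereas it fell by 1.95 in wild type (adjusted p = 0.00609).

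In the step before, the levels of these genes differed by less than the larger of their SDs. The mean of *twi* in *brat* mutant embryos was 12.74 ± 0.37 at 3 to 4.5 h, against 12.85 ± 0.14 at 1.5 to 3 h, that of *net* was 11.58 ± 0.57, against 11.58 ± 0.20, and that of *dan* was 11.92 ± 0.38, against 11.71 ± 0.19 (SD, n = 3 each). The samples of 3 to 4.5 h enter both steps, so the 2 steps are not independent of each other. At 3 to 4.5 h replicate 3 was the lowest of the 3 *brat* mutant samples for all 3 genes. Without it *twi* changed by -2.63, *net* by -3.13 and *dan* by -2.38, each past the FDR. Then *CG14111* also fell, with a change of -2.40, and *tap*, a bHLH gene of the nervous system, rose by 2.02 (limma, adjusted p = 0.0325 for both). Without any one of the other 5 *brat* mutant samples, 0 genes passed, with adjusted p of 0.125 to 0.23 for these 3.

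**Figure D2:**
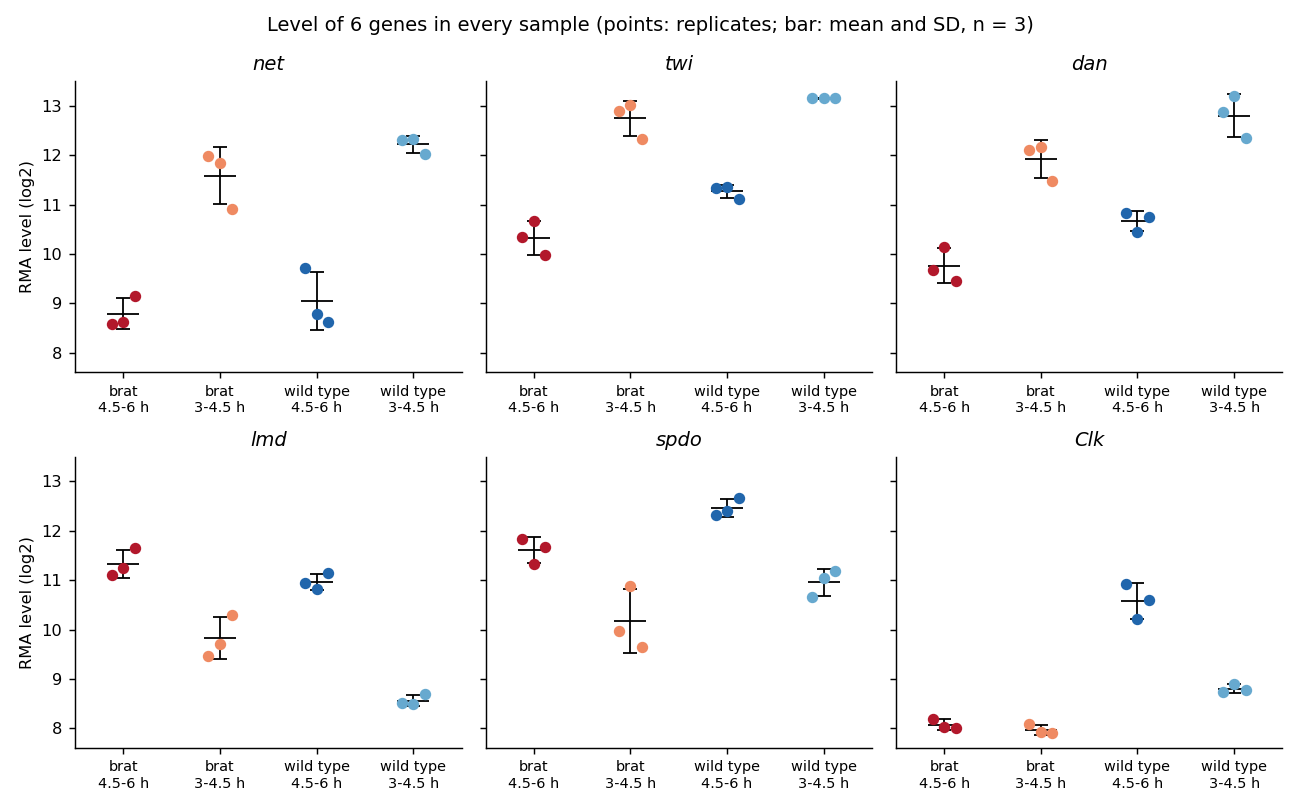
RMA level on the log2 scale (vertical axis) of 6 genes in the 3 replicates of each group (points), with the mean and SD as bars. *net*, *twi* and *dan* are lower at 4.5 to 6 h in both genotypes without overlap, *lmd* and *spdo* are higher in both, and *Clk* is at 8.20 or below in the 6 *brat* mutant samples of these times.

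The 17 genes past the FDR as higher in *brat* mutant embryos in the fit of all 24 samples included *lmd*, *spdo*, *meru* and *sv*. They were picked by an alternative fit, so their values describe that fit and are not counted as calls of the 6-sample test. *lmd* (CG4677), a Gli-type zinc finger factor of fusion-competent myoblasts, was 11.11, 11.24 and 11.65 at 4.5 to 6 h, against 9.47, 9.72 and 10.30 at 3 to 4.5 h. It was 2.83-fold higher (log2 change 1.50, SE 0.26 in the 6-sample fit, adjusted p = 0.187 there and 0.0042 with limma on 24 samples). In wild type *lmd* rose by 2.41 (adjusted p = 0.00388). It began at 9.83 ± 0.42 at 3 to 4.5 h in *brat* mutant embryos, against 8.56 ± 0.11 in wild type.

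*spdo* (sanpodo, needed for Notch signalling after asymmetric divisions) was 11.84, 11.32 and 11.68 at 4.5 to 6 h, against 9.98, 10.89 and 9.64 at 3 to 4.5 h (1.44, adjusted p = 0.0333 in the 24-sample fit). *meru*, a polarity protein of sense organ precursors, was 10.91, 11.64 and 10.35, against 9.56, 9.27 and 9.55 (1.51, adjusted p = 0.0103). *sv*, the fly Pax2 gene, was 10.69, 10.55 and 9.88, against 9.31, 9.09 and 9.76 (0.99, adjusted p = 0.047).

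The other genes of this direction were of varied function. *Prat2*, an enzyme of purine synthesis, changed by 1.26, *cn*, which encodes kynurenine 3-monooxygenase, by 1.44, and *Smvt*, named as a multivitamin transporter, by 1.53. *cib*, an actin-binding protein, changed by 1.04, *trc*, a kinase of the NDR family, by 1.40, and *kat80*, a katanin subunit, by 1.32. *Cph*, a zinc finger factor, changed by 0.98 as a mean of 6 transcripts. In the 6-sample test of single transcripts, a *Cph* transcript rose by 1.82 (limma, adjusted p = 0.0431). *CG8157*, *CG33269*, *CG15515*, *CG41485*, *CG33099* and *IM33* completed the 17, with changes of 1.09 to 1.82.

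*CG8157*, *IM33*, *CG33269* and *CG15515* had smaller log2 changes in wild type (0.58, 0.01, 0.25 and 0.07). *IM33*, named as an immune-induced molecule, was 10.70, 11.01 and 10.38 at 4.5 to 6 h, against 9.66, 9.26 and 8.22 at 3 to 4.5 h in *brat* mutant embryos. Wild-type samples lay at 8.40, 8.86 and 8.88 at 4.5 to 6 h, against 8.43, 8.68 and 8.99. The difference of its changes, 1.64 (SE 0.38), did not pass the FDR (adjusted p = 0.3). Of the 17 genes, all 17 had a positive change in wild type and 8 passed the 6-sample test there.

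The 17 genes past the FDR as lower in that fit held, beside *net*, *twi* and *dan*, the pair-rule gene *prd*, a Pax family factor. It was 8.52, 8.45 and 7.83 at 4.5 to 6 h, against 9.77, 9.91 and 9.14 at 3 to 4.5 h (-1.34, adjusted p = 0.0262 with limma on 24 samples). *rt* (rotated abdomen), an O-mannosyltransferase, was 8.31, 8.22 and 8.38, against 9.49, 9.64 and 10.02 (-1.41, adjusted p = 0.00482). *Septin5*, a cytoskeletal GTPase, was 11.59, 11.84 and 11.70, against 12.99, 13.26 and 12.44 (-1.19), and *ZnT77C*, a zinc transporter, was 9.93, 10.42 and 10.05, against 11.16, 11.57 and 11.41 (-1.24). The rest were *SNCF* (-1.93), *term* (-1.91), the serotonin receptor gene *5-HT2A* (-1.03), *CG14111*, *CG12194*, *CG15628*, *CG14135*, *CG14966*, *CG10038* and *CG7840* (-1.95 to -1.04). All 17 had a negative change in wild type, and 11 passed the 6-sample test there.

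The genes that changed in wild type were read in the *brat* mutant samples, which had no part in choosing them. Because the genes were chosen on the wild-type samples, the wild-type changes of these sets are overstated. Of the 105 genes higher in wild type at 4.5 to 6 h, 102 had a positive change in *brat* mutant embryos and 54 (51.4%) had no overlap in that direction, against 6.63% of all genes. Their median change was 0.64 in *brat* mutant embryos and 1.45 in wild type, and 0 passed the 6-sample test in *brat* mutant embryos. Of the 70 genes lower in wild type, 64 had a negative change in *brat* mutant embryos and 30 (42.9%) did not overlap, against 6.58% of all genes. Their median change was -0.45 in *brat* mutant embryos and -1.45 in wild type, and 3 passed.

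The genotypes also lay apart in these genes at 3 to 4.5 h. The wild-type samples of 4.5 to 6 h and 3 to 4.5 h chose the genes, which by itself sets wild type apart at these times. The mean level of the 105 genes was 10.97, 11.06 and 10.99 at 4.5 to 6 h in *brat* mutant embryos, against 10.28, 10.16 and 10.55 at 3 to 4.5 h. Wild-type means were 11.19, 11.04 and 11.20, against 9.65, 9.57 and 9.68. The *brat* mutant samples of 3 to 4.5 h thus lay above those of wild type, as they did at 0 to 1.5 h (9.70 to 9.75 in *brat* mutant embryos and 9.35 to 9.40 in wild type). They also did at 1.5 to 3 h (9.85 to 10.25 in *brat* mutant embryos and 9.19 to 9.36 in wild type). For the 70 genes the *brat* mutant samples lay below those of wild type at 3 to 4.5 h. They also did at 1.5 to 3 h (11.10 to 11.39 in *brat* mutant embryos and 11.58 to 11.69 in wild type). At 0 to 1.5 h they lay above them (10.68 to 10.79 in *brat* mutant embryos and 10.54 to 10.62 in wild type). The mean level of the 70 genes was 10.16, 10.10 and 10.15 at 4.5 to 6 h in *brat* mutant embryos, against 10.85, 10.80 and 10.66 at 3 to 4.5 h. Wild-type means were 9.94, 10.04 and 9.90, against 11.57, 11.43 and 11.42.

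**Figure D3:**
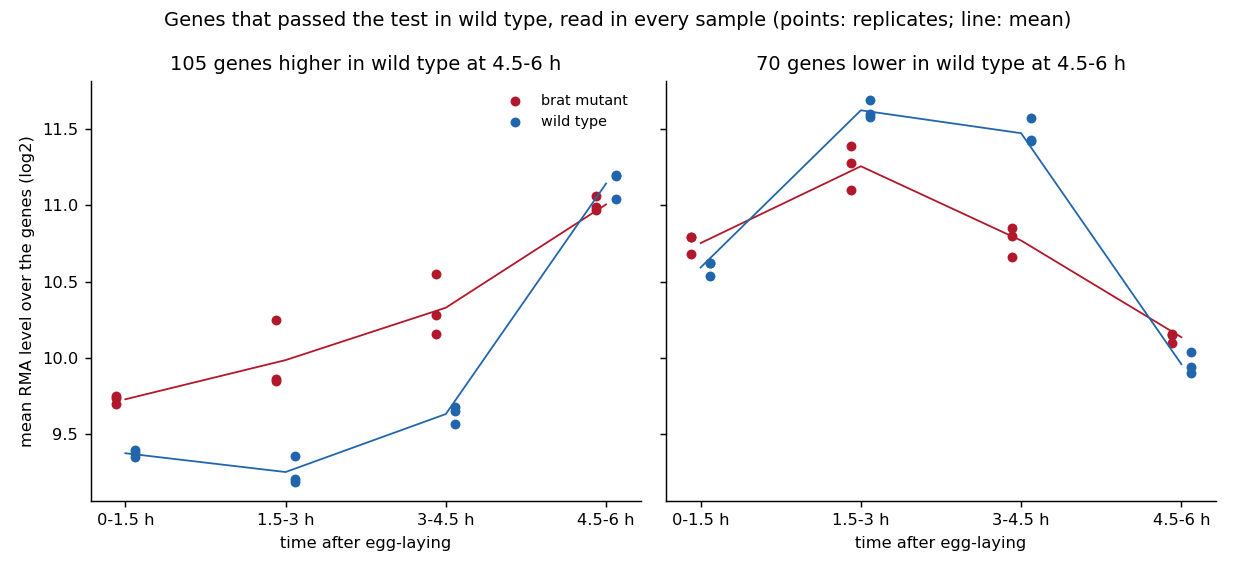
Mean RMA level on the log2 scale (vertical axis) over the 105 genes higher and the 70 genes lower at 4.5 to 6 h in wild type, at each of the 4 collection times (horizontal axis), with 1 point a sample. The wild-type means of the last 2 times chose the genes. The *brat* mutant samples are the higher ones at 3 to 4.5 h on the left and the lower ones on the right.

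For some of the 105 genes the times overlapped in *brat* mutant embryos. The following were chosen after their values were seen. *apolpp*, which encodes the apolipophorin precursor that carries lipids, was 12.69, 12.73 and 12.54 at 4.5 to 6 h, against 12.97, 11.67 and 12.78 at 3 to 4.5 h in *brat* mutant embryos, and rose by 1.97 in wild type (adjusted p = 0.0311). *HLH54F*, a bHLH factor of the caudal visceral mesoderm, was 8.89, 9.04 and 8.87, against 9.58, 8.85 and 8.63, and rose by 1.38 in wild type (adjusted p = 0.0371). Neither difference of changes passed the FDR (adjusted p = 0.489 and 0.3).

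*Clk* (CG7391), the bHLH-PAS activator of the circadian clock, was the one gene past the test of a difference between the genotypes' changes. In *brat* mutant embryos it was 8.20, 8.02 and 8.00 at 4.5 to 6 h, against 8.09, 7.93 and 7.91 at 3 to 4.5 h. All 6 values lay below the mean of all genes. In wild type it was 10.92, 10.21 and 10.61 at 4.5 to 6 h, against 8.74, 8.91 and 8.77 at 3 to 4.5 h, and rose by 1.77 (adjusted p = 0.0102). The change was 1.68 smaller in *brat* mutant embryos (difference -1.68, SE 0.28, limma, adjusted p = 0.0439). In the Cy3 samples only, wild type had 1 sample at each time, and the difference there was -1.20. The call was lost under 14 of 19 alternative fits of the gene's mean level, this one included, with adjusted p of 0.0107 to 0.482 over the others. *Clk* is a mean of 3 transcripts, and the call was also lost in the test of single transcripts and at an FDR of 1%. A minimum change of 1.5-fold kept the call. It held without *brat* mutant replicate 2 or wild-type replicate 2 of 3 to 4.5 h and without wild-type replicate 2 of 4.5 to 6 h, and was lost without each of the other 9 samples (0.0879 to 0.194). At 1.5 to 3 h the mean was 7.89 ± 0.13 in *brat* mutant embryos and 8.22 ± 0.11 in wild type (SD, n = 3 each).

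The gene lists were read by counts and medians. A member is called not overlapping when its 3 samples of one time lie wholly above or below those of the other, which was so for 6.63% (higher) and 6.58% (lower) of all genes. Among 34 lists, *twi* was the only member past the FDR in the 6-sample test. The examples below that are named for not overlapping or for a large change were chosen after their values were seen.

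Pair-rule genes set the segmental stripes of the blastoderm. None of the 9 had a positive change, the median was -0.58 (all genes -0.01), and 3 were lower without overlap: *prd*, *ftz* and *opa*. *ftz*, a homeobox gene, was 9.43, 9.60 and 9.49 at 4.5 to 6 h, against 10.76, 11.26 and 10.36 at 3 to 4.5 h (-1.29, adjusted p = 0.206). *opa*, a zinc finger factor, was 9.75, 10.13 and 9.80, against 10.82, 11.35 and 10.26 (-0.92). In wild type the median was -0.59 and 2 members, *prd* and *opa*, passed the FDR. *slp1*, the member with the highest level, had a log2 change of -0.58. The gap genes, which act above them, had a median of 0.07, with 1 of 10 (*tll*) lower without overlap. The 19 segment polarity genes, which keep the segment borders, had a median of -0.01, with 0 members on either side. Of their highest members, *drm* had a log2 change of 0.00 and *arm*, the fly beta-catenin gene, one of -0.01.

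Hox genes and cofactors had a median of 0.23. *Abd-B* was higher without overlap, at 12.37, 11.98 and 12.38 at 4.5 to 6 h, against 11.81, 11.97 and 11.62 (0.44, adjusted p = 0.696). *abd-A* was too, at 10.67, 10.47 and 10.61, against 9.78, 10.14 and 10.08 (0.58, adjusted p = 0.597). In wild type *abd-A*, which patterns the abdomen, was 12.14, 11.89 and 12.21 at 4.5 to 6 h, against 10.96, 10.72 and 11.66, so at each time the *brat* mutant samples lay below the wild-type ones. *Ubx* was 10.68, 12.09 and 11.82, against 9.79, 11.58 and 11.39, with overlap.

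Of 16 early mesoderm genes, *sna* and *tin* lay with *twi*. *sna*, the repressor that keeps the mesoderm from neural fate, averaged 12.37 ± 0.33 at 4.5 to 6 h and 12.99 ± 0.20 at 3 to 4.5 h (SD, n = 3 each), with a change of -0.62. *tin*, the homeobox gene of dorsal mesoderm and heart, was 9.79, 11.06 and 10.24, against 11.59, 12.70 and 11.41 (-1.54, adjusted p = 0.341, and 0.0651 with limma on 24 samples). *Him*, an inhibitor of Mef2 in muscle progenitors, was the one higher without overlap, at 9.79, 10.27 and 9.80, against 8.84, 9.63 and 8.21 (1.06). *Mef2* itself, the muscle activator, had a log2 change of 0.02 in *brat* mutant embryos and 0.07 in wild type. The list's median was -0.09.

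The 16 genes of muscle founders and myoblast fusion had a median of 0.22, with 4 higher (*kirre*, *ap*, *nau* and *rols*) and 0 lower without overlap. *kirre*, the adhesion receptor of founder cells, was 8.87, 8.79 and 8.46, against 7.59, 7.79 and 8.02 (0.91). Only 4 of the 16 were above the mean of all genes in either *brat* mutant group, so most were read near the bottom of the range.

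Septate junction genes encode the belt that seals mature epithelia. They had the highest share without overlap of any list: 10 of 18 members were higher and 0 lower, 17 of 18 had a positive change, and the median was 0.33. All 18 were above the mean of all genes, and 0 passed the FDR. *cora* (CG11949), a FERM domain protein of the junction, was 11.76, 11.90 and 11.91 at 4.5 to 6 h, against 11.25, 10.99 and 11.55 at 3 to 4.5 h (0.59, SE 0.21, adjusted p = 0.616). Wild-type embryos had 10.88, 10.69 and 10.80, against 9.51, 9.20 and 9.03, where *cora* rose by 1.55 (adjusted p = 0.0107). The *brat* mutant samples were the higher ones at both times.

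*kune*, a claudin, was 13.32, 13.71 and 13.46, against 13.05, 13.19 and 12.93 (0.44), and *Nrg*, the fly neuroglian, 12.39, 12.42 and 12.52, against 11.84, 11.80 and 12.25 (0.48). The other members without overlap were *Nrx-IV*, *sinu*, *pck*, *Atpalpha*, *nrv2*, *Cont* and *Tsf2*, with changes of 0.30 to 0.53. *Lac*, the member with the highest level, had a log2 change of -0.08. In wild type 10 members were also higher without overlap, with a median of 0.49.

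*nrv1*, a beta subunit of the sodium pump, stood apart within this list and is named for it after its values were seen. It was 11.99, 11.72 and 12.32 at 4.5 to 6 h in *brat* mutant embryos, against 11.74, 11.67 and 12.29 at 3 to 4.5 h. In wild type it was 9.89, 10.67 and 9.61, against 8.47, 8.16 and 7.96, and rose by 1.86 (adjusted p = 0.0202). At 0 to 1.5 h the mean was 12.84 ± 0.26 in *brat* mutant and 12.84 ± 0.07 in wild-type embryos (SD, n = 3 each). The difference of its changes was -1.74 (SE 0.36, adjusted p = 0.3).

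**Figure D4:**
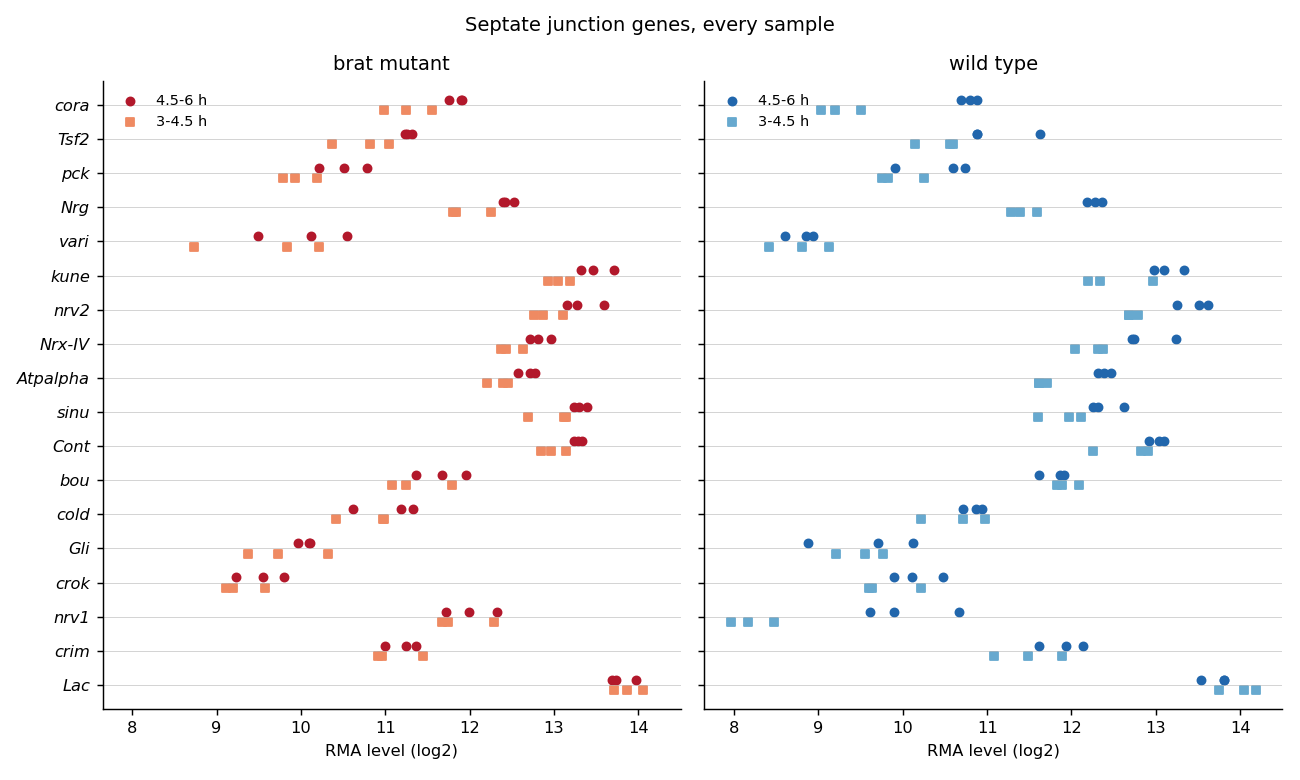
RMA level on the log2 scale (horizontal axis) of the 18 septate junction genes (rows, sorted by their change in *brat* mutant embryos) in every sample of 4.5 to 6 h (circles) and 3 to 4.5 h (squares), *brat* mutant embryos on the left and wild type on the right. Circles lie right of all squares for 10 genes in each genotype, and *nrv1* is near 12 in *brat* mutant embryos at both times.

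Placode genes were also mostly higher where they did not overlap. Of 13 genes in the tracheal list 5 were higher without overlap (*trh*, *vvl*, *btl*, *dys* and *rib*), with a median of 0.33. The 1 lower was *sna*, which is also in the early mesoderm list above. *btl*, the FGF receptor that guides tracheal branches, was 10.89, 11.46 and 10.87, against 9.74, 10.09 and 9.61 (1.26, adjusted p = 0.206, and 0.101 with limma on 24 samples). *trh*, the bHLH-PAS selector of the trachea, was 9.45, 9.80 and 9.59, against 8.93, 8.99 and 9.34 (0.52). Of 12 salivary gland genes 3 were higher without overlap and 0 lower, with a median of 0.30. *sens*, a zinc finger factor of the gland and of sense organ precursors, was 10.08, 10.57 and 10.28, against 8.76, 9.30 and 8.70 (1.39, adjusted p = 0.181). The tracheal list had 8 members higher and 2 lower without overlap in wild type, with a median of 0.54. The salivary gland list had 5 higher and 0 lower there, with a median of 0.53.

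Genes of the nervous system were mixed. Of 21 proneural and neuroblast genes 4 were higher without overlap (*sc*, *ase*, *wor* and *scrt*) and *mira* was lower, with a median of 0.20. *ase*, the proneural bHLH gene of neuroblasts, was 12.90, 12.91 and 12.44 at 4.5 to 6 h, against 11.46, 12.42 and 11.33 at 3 to 4.5 h (1.02, adjusted p = 0.451), and rose by 1.53 in wild type (adjusted p = 0.0401). *wor*, a Snail family factor, was 11.43, 11.78 and 11.53, against 10.07, 10.36 and 11.22 (1.03). *mira*, the adaptor that carries Prospero and the BRAT protein into one daughter of a neuroblast, was 11.82, 11.80 and 10.97, against 11.93, 12.27 and 12.09 (-0.56). Of 16 neuronal genes, *Fas2* (0.56) and *Sema1a* (0.59), both of axon guidance and adhesion, were higher without overlap, with a list median of 0.17. The proneural and neuroblast list had 8 members higher and 3 lower without overlap in wild type, with a median of 0.42. The neuronal list had 5 higher and 0 lower there, with a median of 0.12.

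The list of the Enhancer of split complex, a cluster of Notch targets, also held *Brd* and *Tom*, and had a median of 0.29. Of 13 members 12 had a positive change, 4 were higher without overlap and 0 lower. *E(spl)m3-HLH* averaged 10.36 ± 0.32 at 4.5 to 6 h and 9.25 ± 0.53 at 3 to 4.5 h (SD, n = 3 each), with a change of 1.11, and *E(spl)m8-HLH* was 12.42, 12.17 and 12.51, against 11.94, 11.57 and 11.56 (0.68). The 13 core genes of the Notch pathway had a median of 0.05, with *Dl*, the ligand, lower without overlap at 13.54, 13.53 and 13.42, against 13.58, 13.79 and 13.63 (-0.17). The Enhancer of split list had 5 members higher and 0 lower without overlap in wild type, with a median of 0.42.

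DNA replication genes had a median of -0.26, with 5 of 17 lower without overlap (*RnrS*, *Orc1*, *Mcm5*, *Mcm7* and *PCNA*) and 0 higher. *RnrS*, the small subunit of ribonucleotide reductase, was 12.60, 12.55 and 12.16, against 13.21, 13.49 and 12.69 (-0.70). *Orc1*, of the origin recognition complex, was 12.31, 12.33 and 12.48, against 13.02, 12.93 and 12.84 (-0.56). *dap*, the Cdk inhibitor that ends the embryonic cell cycles, was higher, at 14.11, 13.96 and 14.03, against 12.93, 13.03 and 13.66 (0.82, adjusted p = 0.43), next to a rise of 1.44 in wild type. The 18 cyclin and Cdc25 genes as a list had a median of -0.02. The DNA replication list had 6 members lower and 2 higher without overlap in wild type, with a median of -0.23.

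Enzymes of ecdysone synthesis were lower in part. *spo* was 9.49, 10.13 and 8.73 at 4.5 to 6 h, against 11.29, 11.25 and 10.87 at 3 to 4.5 h (-1.69, adjusted p = 0.206, and 0.0519 with limma on 24 samples). *sad* was 8.36, 8.83 and 8.59, against 9.80, 9.47 and 8.91 (-0.80), and *phm* and *dib* had log2 changes of -0.57 and -0.41. These 4 of 11 steroid genes were lower without overlap, and *EcR*, the receptor, was higher (0.31). The list's median was -0.14, and only 2 of the 11 were above the mean of all genes in either *brat* mutant group. The steroid list had 4 members lower and 1 higher without overlap in wild type, with a median of -0.22. Cellularization genes had a median of -0.48 in *brat* mutant embryos, with *halo* (-0.84) as the 1 of 6 lower without overlap, and 2 of the 6 were above the mean of all genes.

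In the remaining lists at most 3 members lay on one side without overlap. Among them *hid*, which promotes cell death, was 11.90, 11.93 and 12.35, against 10.64, 11.44 and 11.64 (0.82), and *Diap1*, its target, had a log2 change of 0.33. *GATAe*, of the endoderm, was 9.99, 9.49 and 10.30, against 8.43, 8.95 and 9.30 (1.03), and *ovo*, of the germ line, was 10.61, 10.70 and 10.95, against 9.98, 9.95 and 10.11 (0.74). The 76 cytosolic ribosomal protein genes had a median of 0.00, with 3 higher and 3 lower without overlap.

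**Figure D5:**
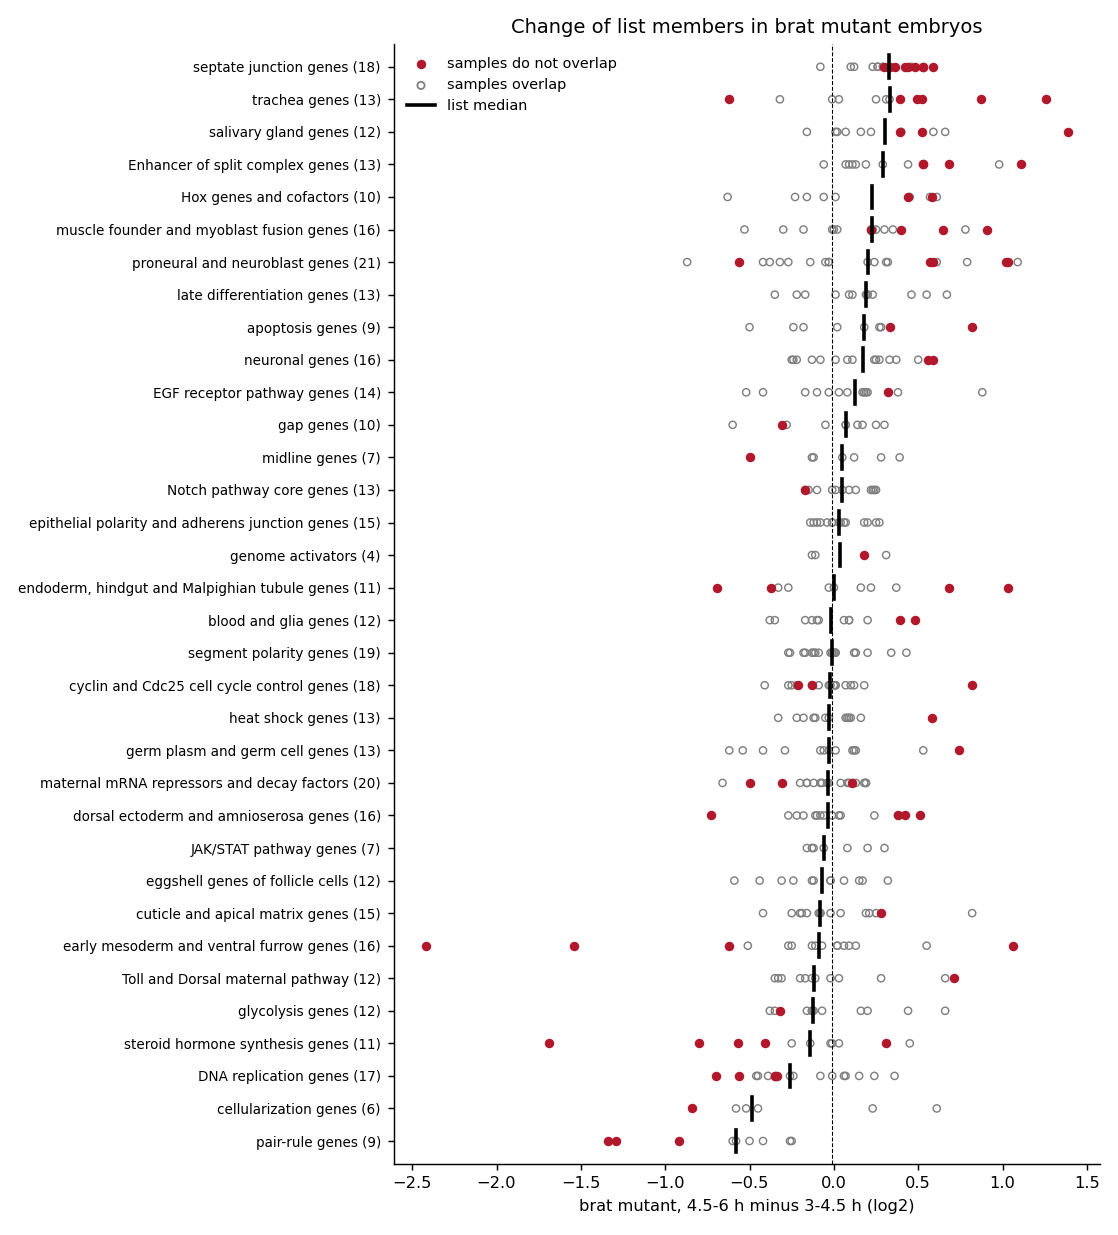
Log2 change from 3 to 4.5 h to 4.5 to 6 h in *brat* mutant embryos (horizontal axis) of each member of 34 lists (rows, sorted by median, number of members in brackets). Filled points are members whose samples did not overlap, bars are list medians, and the dashed line is the median of all genes at -0.01. Septate junction genes have 10 filled points, all on the right, and pair-rule genes have 3, all on the left.

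The study's lists of bound mRNAs were read in the same way. Of 1176 BRAT-associated mRNAs measured here, 86 (7.31%) were higher and 73 (6.21%) lower without overlap, close to the shares of all genes, and their median change was 0.02. *net* and *dan* are in this list and *twi* is not. Of 630 PUM-associated mRNAs, 56 (8.89%) were higher and 29 (4.6%) lower, with a median of 0.04, and *net* is in this list too. By the symbols matched here, the 2 lists share 201 genes.

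Classes A to F are the genes found higher in *brat* mutant embryos by the study, grouped by their course in wild type. They were chosen on these same samples, so their counts are a description and no independent evidence. In Class E, with 262 genes measured here, 85 (32.4%) were higher and 8 (3.05%) lower without overlap in *brat* mutant embryos, the median change was 0.28, and 6 passed the FDR of the 24-sample fit. In wild type Class E had a median of 0.52. In Class A 25 of 97 (25.8%) and in Class B 29 of 171 (17.0%) were higher without overlap, with medians of 0.12 and 0.15. Classes C and D had medians of 0.10 and -0.01, and *net* and *twi* are in Class D. In Class F, 19 of 106 (17.9%) were lower and 12 (11.3%) higher without overlap, and the median was -0.10 in *brat* mutant and -0.56 in wild-type embryos.

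The genes at the centre of the study had small changes. bratfs1 still gives mRNA, so that the level of *brat* does not check the labels. *brat* was 14.21, 14.18 and 14.29 at 4.5 to 6 h, against 14.18, 14.12 and 14.05 at 3 to 4.5 h (0.11, adjusted p = 0.928). *hb*, whose maternal mRNA BRAT represses, was 13.12, 13.30 and 13.24, against 13.24, 13.01 and 13.22 (0.07, adjusted p = 0.958). The array reads maternal and zygotic *hb* transcripts together, so these values do not show the maternal mRNA alone. For the maternal form, RT-qPCR in the paper gave higher levels without functional BRAT at both of these times. *smg*, which encodes a maternal factor of mRNA decay, was 14.66, 14.36 and 14.66, against 14.49, 13.83 and 14.80 (0.19). In wild type *smg* was 11.75, 13.23 and 12.85, against 13.05, 13.17 and 12.94, all below the *brat* mutant samples. *zld*, the activator of the zygotic genome, had a log2 change of -0.13 and *pum* one of 0.04. *nos* had a log2 change of 0.11, with all samples of both times below the mean of all genes.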

How the data were processed

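Total RNA of *brat* mutant and w1118 embryos was hybridized by the authors to custom NimbleGen arrays, 1 Cy3 and 1 Cy5 sample on each, and all 24 samples were normalized together by RMA with ArrayStar. Which background correction was applied is not stated in the labels or methods. The deposited values are log2, 1 for each transcript in a sample. Of 17775 transcripts 6 had no value, and 17769 were used. Names of 16995 were updated through the RefSeq table. Another 497 had no match and 277 had several, and kept their deposited name. Transcripts were averaged per gene symbol.

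Groups came from the labels. Changes were tested with limma 3.58.1 in R 4.3.3 over all 13626 genes at a Benjamini-Hochberg FDR of 5%, on 6 samples a genotype, and their difference in 1 fit of 24 samples. limma was used in place of SAM, the study's test between genotypes, which was not run here. The procedure was tested on simulated data. Lists from the study were matched by symbol. Genes were named by size of change among calls without overlap and above the mean of all genes, by list, by difference between genotypes, and a fixed set (*brat*, *hb*, *zld*, *smg*, *nos*, *pum*). Members and lists were chosen with earlier results of these data known. Alternatives were 2 scalings, a filter on level, limma-trend, a replicate block, 1 dye only, single transcripts, a minimum fold, a stricter FDR, other sets of samples, and each replicate left out. Figures used matplotlib 3.10.9.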

Additional observations from a re-analysis of the deposited data

Results flagged for a closer look

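*Clk* stood out because its change over the interval differed between genotypes by a test of the difference itself. The change in *brat* mutant embryos minus that in wild-type embryos was -1.68 on the log2 scale (SE 0.28, limma on 24 samples, adjusted p = 0.0439). In *brat* mutant embryos the 3 samples of 4.5 to 6 h overlapped the 3 of 3 to 4.5 h, and in wild type they did not. No outlier was sought, since every group had 3 samples.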

How the results depend on the processing

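All 3 genes that fell in *brat* mutant embryos kept their direction under every alternative. The counts depended on the setting. In *brat* mutant embryos, 17 genes higher and 17 lower were called in the fit of all 24 samples, 1 higher and 3 lower with single transcripts, 0 lower in the Cy3 samples only, 0 lower with genes above the mean only (adjusted p = 0.0533, 0.0533 and 0.0554 for *net*, *twi* and *dan*), 0 lower at an FDR of 1%, and 1 lower (*twi*) with the replicate block. Leaving out each replicate gave 0 to 1 higher and 0 to 4 lower. The labels do not say whether a replicate number marks a shared collection, so a pairing was not settled and the block is only an alternative. The correlation of deviations between same-numbered *brat* mutant samples was 0.041, 0.106 and 0.133, so not all pairs passed 0.1. Differently numbered ones had -0.113 to 0.01, and each sample correlated best with its own number. The deviations of a gene sum to 0 within a group, so the 2 ranges are not independent of each other. Replicate 2 was also the Cy5 sample at both times, where number and dye cannot be told apart. In wild type the counts were 216 higher and 144 lower with genes above the mean only, 261 and 174 in the fit of all 24 samples, 186 and 147 with limma-trend, 41 and 28 with the replicate block, 13 and 9 at an FDR of 1%, and 18 to 47 and 13 to 29 without 1 replicate. The Cy3 samples of wild type alone could not be fitted, being 1 against 1. The difference between genotypes was called for 0 genes as lower in the 12-sample fit, with limma-trend and with the replicate block. The same held with ribosomal protein scaling, with single transcripts and at an FDR of 1%. In the Cy3 samples only, the lone wild-type sample of each time leaves no replicate check in wild type, so no call is given for the difference. Without 1 replicate the differences called were 0 to 1 higher and 0 to 2 lower. *Clk* kept its direction in the alternative fits of its mean level, with adjusted p of 0.0107 to 0.482 over those other than the Cy3 samples only. Among genes without a call, *hb*, *nos* and *pum* had changes of -0.04, -0.24 and -0.10 in the Cy3 samples only, and without 1 replicate the changes were -0.00 to 0.12 for *hb*, -0.08 to 0.40 for *smg*, -0.11 to 0.37 for *nos* and -0.05 to 0.17 for *pum*. The limma-trend, scaled and minimum-fold settings kept all 3 *brat* mutant calls. The cause of the lost and gained calls was not tested. Low signal limits genes near the bottom of the range, where a change is compressed.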
